A study of Mus musculus with 9 samples.

Results

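The genes described here are 8 genes that mark the fetal-like state of regenerating colon epithelium, namely *Ly6a*, *Clu*, *Anxa1*, *Il33*, *Sprr1a*, *Msln*, *Krt7* and *Ptgs2*. They were chosen by symbol from the 46095 gene symbols of the count table, where all 8 were present, and all 8 passed the filter on low counts that left 14593 genes for testing. RNA-seq was performed on IECs released with EDTA from the colons of 4 Smad4-knockout and 5 Smad4-knockout;Setd2-knockout mice on a C57BL/6j background. The latter are called double-knockout here, and both genotypes lack *Smad4*. In both, Villin-Cre removes the floxed genes in the intestinal epithelium, so that other cells keep them. Every mouse received AOM (10 mg/kg) at 8 weeks of age and then 2% DSS in the drinking water, and cells were taken on day 10 of AOM/DSS. No uninjured colon was analysed here, so whether a gene had been induced by the injury was not measured.

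When colon epithelium is wounded, for instance by the sulfated polysaccharide DSS, surviving crypt cells lose adult stem cell transcripts for a time and take up a programme that resembles the fetal gut. The transcriptional co-activator YAP and its TEAD partners are known to drive this state, together with prostaglandin and cytokine signals from the wound bed. *Ly6a* encodes the surface protein Sca-1, by which the repairing cells are commonly sorted, and *Clu* encodes the secreted chaperone clusterin, which marks a rare revival stem cell that appears after damage. *Anxa1*, *Il33* and *Ptgs2* encode mediators of inflammation and its resolution, and *Sprr1a*, *Msln* and *Krt7* encode structural and surface proteins that are more usual in other epithelia.

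Of the 8 genes, *Clu* and *Sprr1a* fell in double-knockout IECs and the other 6 did not pass the test in either direction. *Clu* dropped about 11.5-fold and *Sprr1a* about 2.19-fold, and for both every double-knockout library lay below every Smad4-knockout library. The most abundant genes of the set, *Ly6a*, *Anxa1* and *Krt7*, differed by far less, and *Il33*, *Msln* and *Ptgs2* varied between mice of 1 genotype by at least as much as between the genotypes. So 2 of 8 genes were lower and 0 higher at a threshold of 0.05 on the Benjamini-Hochberg adjusted p, taken over all tested genes, of the quasi-likelihood F test of edgeR. Of all 14593 genes 6.54% were lower and 6.76% higher (13.3% together), and 8.87% had every double-knockout library below every Smad4-knockout library, while 8.34% had every one above. By a rule of a fold over 1.5 with an unadjusted p under 0.05, again 2 of the 8 genes were lower and 0 higher, against 6.24% and 7.54% of all genes. Without adjustment 3 of the 8 genes had a p under 0.05, and so had 30.6% of all tested genes. None was higher with DESeq2 or limma-voom either, which called 2 and 3 of them lower, respectively. The median log2 fold change of the 8 genes was -0.20, where that of all tested genes was -0.00059. Only 2 genotypes were compared, and 8 genes are too few for the share of lower genes to be set apart from this background.

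**Figure D1:**
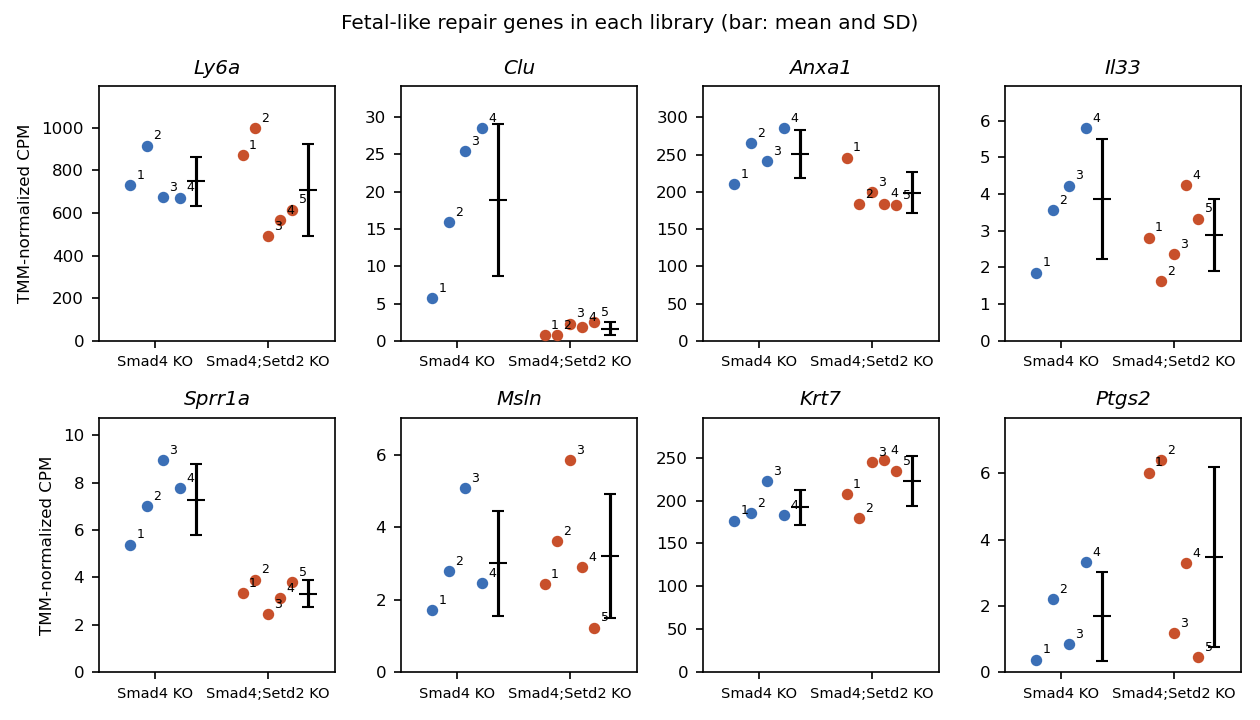
TMM-normalized CPM (y axis, from 0, with a scale of its own in each panel) of the 8 repair genes in each library, with Smad4-knockout libraries in blue, double-knockout libraries in orange, the replicate number beside each point, and the mean and SD as a black bar. The groups are apart for *Clu* and *Sprr1a* and overlap in the other 6 panels.

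The total count per library was 12487129 to 17120202, and values are CPM scaled by edgeR's TMM factors (0.956 to 1.09), in which a single count is worth 0.0593 to 0.0793 CPM. *Setd2* was at 99.0 to 119.9 CPM in Smad4-knockout and 53.8 to 86.9 CPM in double-knockout libraries (log2 fold change -0.77, standard error 0.14, adjusted p = 0.00756 by edgeR). *Smad4*, which is deleted in both genotypes, was still counted, at 54.2 to 92.6 and 38.2 to 114 CPM (change of 0.13 on the log2 scale, adjusted p = 0.819). Epithelial markers such as *Epcam*, *Cdh1* and *Krt8* summed to 16714 to 18822 CPM and 14747 to 17697 CPM in the respective genotypes, while leukocyte markers (138 to 276 and 113 to 206.7 CPM) and endothelial markers (12.4 to 14.5 and 11.7 to 14.5 CPM) were low. Markers of small intestinal enterocytes summed to 430.1 to 509 CPM in Smad4-knockout and 656 to 1688 CPM in double-knockout libraries, without overlap, and were highest in double-knockout 2 and 4. Y-linked genes had over 100 counts in double-knockout 1, 2 and 5 and at most 28 in the other 6 libraries, called libraries with few Y-linked counts here. *Xist* had 5, 6 and 5 counts in double-knockout 1, 2 and 5 and 17833 to 26617 in the other 6 libraries. By these counts double-knockout 1, 2 and 5 came from male mice and the other 6 libraries from female mice. All Smad4-knockout libraries are among the latter, so that sex is partly confounded with genotype. Fewer cells of a type and less RNA per cell cannot be told apart in these bulk samples.

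Levels can be compared between genes only after division by transcript length, for which the union of all annotated exons stands here. This union can be longer than the main transcript, so that the order depends on the annotation. The SD between mice does not measure that error. In Smad4-knockout IECs *Ly6a* led with 621 ± 95.7 CPM per kb (SD, n = 4), followed by *Anxa1* with 85.9 ± 11.04 and *Krt7* with 27.2 ± 2.91. *Sprr1a* (9.03 ± 1.86 CPM per kb) and *Clu* (5.49 ± 2.98) came next, and differed by more than the SD of either. The order closed with *Il33* (1.34 ± 0.564 CPM per kb), *Msln* (0.984 ± 0.474) and *Ptgs2* (0.369 ± 0.291), where *Il33* and *Msln* differed by less than the SD of either and *Msln* and *Ptgs2* by more. In double-knockout IECs the same 4 genes headed the order of CPM per kb, with *Ly6a* at 588 ± 179, *Anxa1* at 68.4 ± 9.29, *Krt7* at 31.6 ± 4.09 and *Sprr1a* at 4.12 ± 0.726 (SD, n = 5). *Clu*, by contrast, was last with 0.478 ± 0.244 CPM per kb, below *Msln* (1.05 ± 0.560), *Il33* (0.997 ± 0.341) and *Ptgs2* (0.758 ± 0.591), although its distance from *Ptgs2* was within the spread.

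The gene *Clu* lies on the forward strand of chromosome 14 (65968483 to 65981547 in GRCm38). In Smad4-knockout libraries 1 to 4 it was at 5.76, 15.9, 25.4 and 28.5 CPM (90, 268, 414 and 359 counts). In double-knockout libraries 1 to 5 it was at 0.768, 0.781, 2.30, 1.81 and 2.55 CPM (12, 11, 33, 23 and 33 counts). The lowest Smad4-knockout library was still 2.26-fold above the highest double-knockout library. Within each genotype the level varied widely, 4.94-fold from lowest to highest in Smad4-knockout and 3.33-fold in double-knockout IECs.

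*Clu* thus averaged 18.9 ± 10.2 CPM over the 4 Smad4-knockout and 1.64 ± 0.837 CPM over the 5 double-knockout libraries (mean ± SD, as for all genes here). Its log2 fold change was -3.53 (standard error 0.49, 95% interval -4.60 to -2.45, adjusted p = 0.00177 by edgeR), which placed it 20th from the lowest among 14593 log2 fold changes. The lowest double-knockout values came from replicates 1 and 2. Without both of these libraries the log2 fold change was -3.07 (adjusted p = 0.00545), and among the libraries with few Y-linked counts it was -3.18 (adjusted p = 0.00816). Without double-knockout 2 and 4, where small intestinal enterocyte markers were highest, it was -3.33 (adjusted p = 0.0181). Summed small intestinal enterocyte markers moved with the genotype in the opposite direction to *Clu*, at 1255, 1688, 1048, 1603 and 656 CPM in double-knockout 1 to 5, and their part in the fall of *Clu* was not tested. Of these markers 7 of 10 tested genes rose (6.76% of all genes), among them *Sis* (2.77 to 155 CPM), *Enpep* (1.16 to 65.3 CPM), *Mttp* (4.41 to 102 CPM) and *Slc10a2* (18.5 to 204 CPM), while *Fabp2* was at 214 and 228 CPM and *Lct* never exceeded 7 counts.

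**Figure D2:**
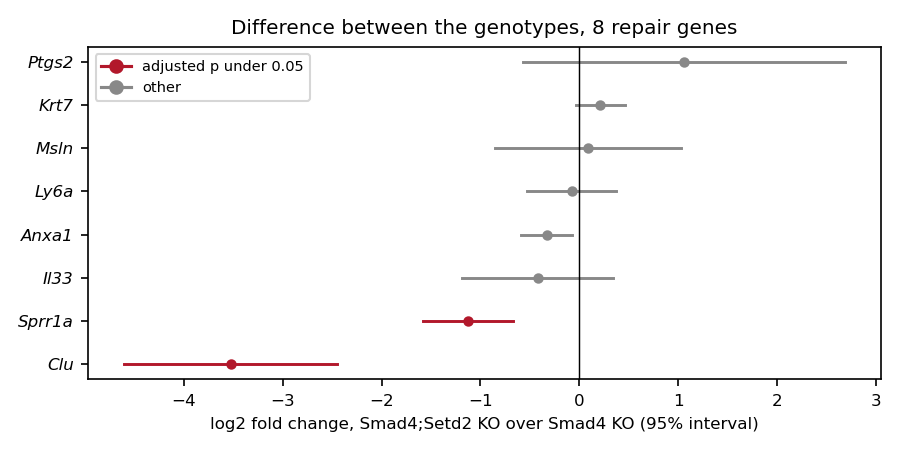
Log2 fold change of the 8 repair genes (x axis, double-knockout over Smad4-knockout) with its 95% interval from edgeR's quasi-likelihood fit, with genes of an adjusted p under 0.05 in red. The intervals of *Clu* (-4.60 to -2.45) and *Sprr1a* (-1.58 to -0.67) lie below 0, and that of *Ptgs2* (-0.57 to 2.69) is the widest.

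*Sprr1a* encodes a small proline-rich protein that is cross-linked into the cornified envelope of squamous cells, and its gene lies on the reverse strand of chromosome 3 (92483952 to 92485895 in GRCm38). It was at 5.38, 7.0003, 8.95 and 7.77 CPM in Smad4-knockout 1 to 4 and at 3.33, 3.91, 2.44, 3.14 and 3.79 CPM in double-knockout 1 to 5. The groups did not overlap, and the lowest Smad4-knockout library was 1.38-fold above the highest double-knockout library. Averages were 7.27 ± 1.497 CPM in Smad4-knockout and 3.32 ± 0.585 CPM in double-knockout IECs, and the log2 fold change was -1.13 (standard error 0.21, 95% interval -1.58 to -0.67, adjusted p = 0.00692 by edgeR). Leaving out any 1 library gave values from -1.24 to -1.01, and leaving out double-knockout 2 and 4 gave -1.18 (adjusted p = 0.0344). No other tested member of the family passed the test. *Sprr2a1*, *Sprr2a2* and *Sprr2a3* were at 405, 53.0 and 699 CPM in Smad4-knockout and 379, 49.5 and 562 CPM in double-knockout IECs (log2 fold changes -0.10, -0.10 and -0.32, adjusted p = 0.761, 0.721 and 0.145 by edgeR). These 3 are close copies of each other, between which the authors' counting could split reads. The remaining 11 of 15 family members were not tested, and *Sprr1b* had no count at all. Markers of squamous epithelium summed to 5.87 to 9.44 CPM in Smad4-knockout and 3.17 to 5.10 CPM in double-knockout libraries, without overlap and in the direction of *Sprr1a*. Of their 4 tested genes 1 fell (6.54% of all genes), the suprabasal keratin *Krt13* (1.79 to 0.477 CPM, log2 fold change -1.92, adjusted p = 0.0172), and all 4 had a negative log2 fold change. The basal keratins *Krt14* (1.29 and 0.730 CPM, adjusted p = 0.191) and *Krt15* (1.61 and 0.951 CPM, adjusted p = 0.148) did not pass, and the basal markers *Krt5* and *Trp63* had at most 7 and 2 counts in any library and were not tested. The part of such cells in the fall of *Sprr1a* was not tested.

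The 250 bases before the RefSeq start of *Sprr1a* (GRCm38.p6, chr3:92485882-92486131, reverse strand) are printed because this is the gene with a promoter sequence at hand that fell, and those of *Anxa1* (GRCm38.p6, chr19:20390672-20390921, reverse strand) because it came nearest to the threshold among the others. Capitals mark matches on either strand to the AP-1 motif TGANTCA, the TEAD motif GGAATG, the cAMP response element TGACGTCA and the TATA box TATAAA.
Sprr1a: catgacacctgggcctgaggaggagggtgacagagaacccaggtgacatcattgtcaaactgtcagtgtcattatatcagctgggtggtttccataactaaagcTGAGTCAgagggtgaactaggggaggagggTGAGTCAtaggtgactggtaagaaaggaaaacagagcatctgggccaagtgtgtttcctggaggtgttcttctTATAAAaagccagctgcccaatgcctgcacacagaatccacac
Anxa1: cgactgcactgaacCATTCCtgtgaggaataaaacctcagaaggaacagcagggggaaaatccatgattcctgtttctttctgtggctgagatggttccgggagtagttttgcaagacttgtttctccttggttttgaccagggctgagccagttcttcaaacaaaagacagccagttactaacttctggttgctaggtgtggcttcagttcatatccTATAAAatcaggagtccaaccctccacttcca
The *Sprr1a* sequence held 2 AP-1 matches, which started 146 and 116 bases before the start of transcription, and a TATA box 43 bases before it. The *Anxa1* sequence held a TEAD match at 236 bases and a TATA box at 32 bases. RefSeq promoters were at hand for 5 of the 8 genes (*Sprr1a*, *Anxa1*, *Il33*, *Krt7* and *Ptgs2*). Both annotated starts of *Il33* had a TEAD match and a TATA box within 250 bases, and *Krt7* and *Ptgs2* had a match to none of the 4 motifs. In windows of the same length before 32851 RefSeq starts, the AP-1 motif was present in 6.75%, the TEAD motif in 12.6%, the cAMP response element in 1.55% and the TATA box in 12.4%.

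*Ly6a* was the most abundant gene of the set. It was at 730.4, 916, 673 and 672 CPM in Smad4-knockout 1 to 4. In double-knockout 1 to 5 it was at 873, 996, 489.9, 566 and 616 CPM. Double-knockout 3, 4 and 5 thus lay below every Smad4-knockout library, replicate 2 above every one of them and replicate 1 within their range. The means of 748 ± 115 and 708 ± 216 CPM differed by less than the spread between mice (log2 fold change -0.08, 95% interval -0.53 to 0.37, adjusted p = 0.825 by edgeR). The sign turned without Smad4-knockout 2 (0.03), double-knockout 3 (0.04) or double-knockout 4 (0.0029). Among the 6 libraries with few Y-linked counts the log2 fold change of *Ly6a* was -0.50 (adjusted p = 0.0336). Of the double-knockout libraries these keep only replicates 3 and 4, its lowest values, so that this is no support for a fall. With a term for Y-linked counts over all libraries the log2 fold change was -0.50 (adjusted p = 0.141). Of 6 tested genes of the Ly6 family none passed edgeR's test, 3 had an unadjusted p under 0.05 (30.6% of all genes), and DESeq2 and limma-voom each called 1 lower. *Ly6e* was at 781 and 802 CPM (change of 0.04 on the log2 scale, adjusted p = 0.919), and *Ly6d* at 5.05 and 1.91 CPM (change of -1.40 on the log2 scale, adjusted p = 0.0544).

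*Anxa1* encodes a phospholipid-binding protein that dampens leukocyte entry through formyl peptide receptors and helps epithelial wounds to close. It was at 210.3, 265, 241 and 285 CPM in Smad4-knockout 1 to 4 and at 246, 184, 199, 184 and 182 CPM in double-knockout 1 to 5. All 5 double-knockout libraries lay below the Smad4-knockout mean, and 4 of them below every Smad4-knockout library. With 250.2 ± 32.1 against 199 ± 27.0 CPM the log2 fold change was -0.33 (standard error 0.12, 95% interval -0.59 to -0.07, adjusted p = 0.0845 by edgeR), so that it did not pass the threshold. Without double-knockout 1 the log2 fold change was -0.42 (adjusted p = 0.0243), and without double-knockout 1 and 2 it was -0.40 (adjusted p = 0.0306). Both fits leave out the highest double-knockout value, so that they are no support for a fall. Without any other single library *Anxa1* did not pass (adjusted p up to 0.191). With limma-voom, here with weights for the quality of each library, the log2 fold change over all libraries was -0.38 (adjusted p = 0.0199). None of the 11 tested annexins passed edgeR's test, and 4 had an unadjusted p under 0.05 (30.6% of all genes). DESeq2 called 2 higher and 1 lower, and limma-voom 1 higher and 2 lower. *Anxa2* was at 879 and 869 CPM (change of -0.02 on the log2 scale, 95% interval -0.26 to 0.22). The receptor genes *Fpr1* and *Fpr2* had at most 17 and 19 counts in a library and were not tested.

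*Krt7* encodes a type II keratin of ducts and simple epithelia. It was at 177, 186, 222 and 183 CPM in Smad4-knockout 1 to 4 and at 207, 179, 245, 247 and 234 CPM in double-knockout 1 to 5. Of the double-knockout libraries 3 lay above every Smad4-knockout library and 2 within their range. The means were 192 ± 20.5 and 223 ± 28.8 CPM, and the log2 fold change was 0.21 (standard error 0.11, 95% interval -0.03 to 0.46, adjusted p = 0.219 by edgeR). The low double-knockout libraries were replicates 1 and 2, and leaving out these lowest values of its own gave a log2 fold change of 0.34 (adjusted p = 0.0325), which follows from their removal and is no support for a rise. The 6 libraries with few Y-linked counts, which also leave out replicates 1 and 2, gave 0.36 (adjusted p = 0.0363). The other keratins of simple epithelium did not pass the test either, with *Krt8* at 4696 and 4296 CPM (change of -0.13 on the log2 scale, adjusted p = 0.460) and *Krt18* at 565 and 630.0 CPM (change of 0.16 on the log2 scale, adjusted p = 0.416). None of the 6 passed edgeR's test, 2 had an unadjusted p under 0.05 (30.6% of all genes), and DESeq2 and limma-voom each called 1 higher and 1 lower.

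*Il33* encodes an alarmin of the interleukin 1 family that is released from injured cells and read by the receptor ST2, the product of *Il1rl1*. It was at 1.86, 3.56, 4.23 and 5.79 CPM in Smad4-knockout 1 to 4 and at 2.82, 1.63, 2.37, 4.24 and 3.33 CPM in double-knockout 1 to 5. Of the 5 double-knockout libraries 4 lay inside the range of the Smad4-knockout libraries. The log2 fold change was -0.42 (standard error 0.35, 95% interval -1.18 to 0.34, adjusted p = 0.439 by edgeR). The counts behind it were 23 to 73 a library. *Il1rl1* was at 1.11 ± 0.896 and 2.88 ± 2.42 CPM (change of 1.37 on the log2 scale, adjusted p = 0.184). Of the 11 tested genes of interleukin 1 family members, receptors and other alarmins 2 fell and 0 rose with edgeR and with DESeq2 and limma-voom, and 3 had an unadjusted p under 0.05, where 6.54% of all genes fell and 30.6% had such a p. The genes that fell were *Il18*, an epithelial cytokine activated by the inflammasome, from 159 ± 15.9 to 81.9 ± 35.1 CPM (log2 fold change -0.96, adjusted p = 0.0466), and *Il1rn*, which encodes the interleukin 1 receptor antagonist, from 69.0 ± 21.3 to 35.7 ± 12.9 CPM (log2 fold change -0.95, adjusted p = 0.0491). Both lay close to the threshold, and *Il18* was lowest in double-knockout 1 and 2 (40.1 and 49.4 CPM). The call of *Il1rn* was lost without any of Smad4-knockout 1 to 4 or double-knockout 2 to 4 (adjusted p up to 0.160), and also with DESeq2 size factors (0.0507), library size alone (0.0699), a minimum of 10 counts in every library (0.0511), the robust fit (0.0660) and the replicate block (0.100). The call of *Il18* was lost without any of Smad4-knockout 1 to 4 or double-knockout 2 and 4 (adjusted p up to 0.112) or with the robust fit (0.0693) or when a Y-linked term entered the fit (log2 fold change -0.54, adjusted p = 0.289). With double-knockout 2 and 4 left out together, neither *Il1rn* (adjusted p = 0.148) nor *Il18* (0.135) passed.

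*Ptgs2* encodes cyclooxygenase 2, the inducible enzyme of prostaglandin synthesis, which in the wounded colon is prominent in stromal and immune cells. It was at 0.384, 2.20, 0.858 and 3.33 CPM in Smad4-knockout 1 to 4 and at 6.01, 6.39, 1.19, 3.30 and 0.465 CPM in double-knockout 1 to 5. Double-knockout 1 and 2 lay above all other libraries, while replicate 5 was almost as low as the lowest Smad4-knockout library. The values spanned 8.66-fold in Smad4-knockout and 13.8-fold in double-knockout IECs, and the log2 fold change of 1.06 had a 95% interval from -0.57 to 2.69 (adjusted p = 0.354 by edgeR). Without double-knockout 1 and 2, its highest values, it was -0.013. Stromal markers summed to 30.5 to 48.8 CPM in Smad4-knockout and 37.3 to 85.8 CPM in double-knockout libraries. In double-knockout 1 to 5 they were at 58.2, 65.1, 85.8, 56.0 and 37.3 CPM, so that 4 of these lay above every Smad4-knockout library. The stromal sum was highest in replicate 3, where *Ptgs2* was at 1.19 CPM, while *Ptgs2* was highest in replicates 1 and 2. Leukocyte markers summed to 174, 186, 160, 207 and 113 CPM in double-knockout 1 to 5. Of 6 tested stromal markers none passed edgeR's test and 3 had an unadjusted p under 0.05 (30.6% of all genes), and DESeq2 and limma-voom called 1 and 0 higher. The part of stromal or immune cells in the level of *Ptgs2* was not tested. Of the 12 tested genes of prostaglandin synthesis, transport and response 1 rose and 0 fell and 2 had an unadjusted p under 0.05, where 6.76% of all genes rose and 30.6% had such a p, and DESeq2 and limma-voom each called 2 higher and 0 lower. The gene that rose was *Slco2a1*, the prostaglandin uptake transporter, which rose from 45.8 ± 6.58 to 82.5 ± 25.7 CPM (log2 fold change 0.85, standard error 0.20, adjusted p = 0.0190) and lost its call without Smad4-knockout 3 or 4 (adjusted p = 0.0687 and 0.0536) or with the term for Y-linked counts (log2 fold change 0.51, adjusted p = 0.143). *Hpgd*, which degrades prostaglandins, was at 149 and 203 CPM (change of 0.44 on the log2 scale, adjusted p = 0.0821) and *Ptges*, a prostaglandin E synthase, at 3.02 and 2.68 CPM (change of -0.16 on the log2 scale, adjusted p = 0.688).

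*Msln* encodes the surface protein mesothelin, which binds the mucin made from *Muc16*. It was at 1.73, 2.79, 5.09 and 2.46 CPM in Smad4-knockout 1 to 4 and at 2.43, 3.62, 5.86, 2.91 and 1.24 CPM in double-knockout 1 to 5. The groups overlapped almost fully. The log2 fold change was 0.09 (95% interval -0.85 to 1.03, adjusted p = 0.907 by edgeR), with a sign that turned without Smad4-knockout 1 (-0.095) or double-knockout 3 (-0.23). *Muc16* was at 0.804 ± 0.298 and 2.72 ± 1.94 CPM (change of 1.73 on the log2 scale, adjusted p = 0.0658). Mesothelial markers, of which *Muc16* is 1, summed to 147 to 188 and 105 to 228 CPM, nearly all of it from *Cldn15*, which intestinal epithelium also expresses (164 and 156 CPM). Of 6 tested markers of this list 5 had a positive log2 fold change (median 0.71 over the 6), and none passed edgeR's test, while 2 had an unadjusted p under 0.05 (30.6% of all genes) and DESeq2 and limma-voom called 2 and 1 higher. *Lrrn4* was at 1.25 and 2.87 CPM without overlap (adjusted p = 0.0544), *Upk3b* at 1.69 and 2.98 CPM (adjusted p = 0.328) and *Gpm6a* at 1.57 and 2.43 CPM (adjusted p = 0.349). *Wt1* was at 0.368 and 0.538 CPM and was not tested. The part of such cells in the level of *Msln* was not tested.

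**Figure D3:**
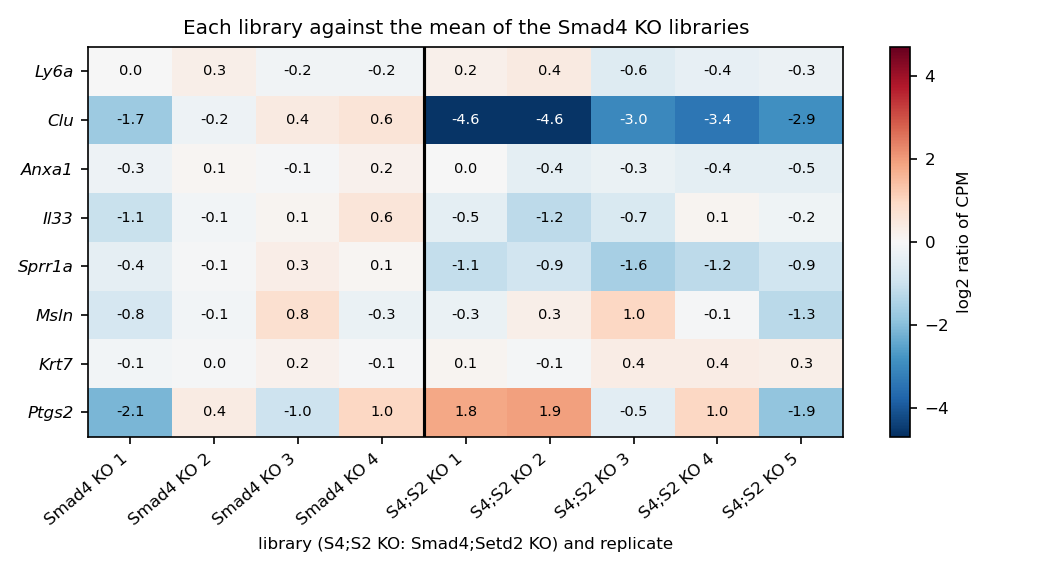
Log2 ratio of the CPM of each repair gene (rows) in each library (columns) to the mean of the 4 Smad4-knockout libraries, in blue where lower and in red where higher. *Clu* is lower in all 5 double-knockout libraries, and *Ly6a* and *Ptgs2* are higher in double-knockout 1 and 2 than in the other 3.

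Among Smad4-knockout libraries replicate 1 had the lowest value for 7 of the 8 genes and replicate 4 the highest for 4 of them, whereas the lowest values of the double-knockout libraries were shared among replicates 1, 2, 3 and 5. As a description over the same 9 libraries, with the genotype means removed from log2 CPM, the highest Pearson correlation between members was that of *Clu* with *Il33* (r = 0.80) and the lowest that of *Ly6a* with *Krt7* (r = -0.81). Among the other genes that averaged 5 CPM or more (10908 for most members), those most like *Ly6a* were *Rnf19b* (r = 0.995), *Trim14* (0.970) and *Ppp2r2d* (0.967). The genes most like *Clu* were *Gm39770* (r = 0.970), *Aasdh* (0.946) and *Zfp397* (0.942), and those most like *Sprr1a* were *Otud5* (r = 0.931), *Pttg1* (0.921) and *Fam174a* (0.919). *Ptgs2* was most like *Tc2n* (r = 0.985), *Slc38a6* (0.970) and *Oard1* (0.962), and *Il33* most like *Cul2* (r = 0.965), *Smoc2* (0.964) and *Rara* (0.962). *Anxa1* was most like *Fra10ac1* (r = 0.952), *Prmt9* (0.947) and *Heatr3* (0.934), and *Krt7* most like *Zfp319* (r = 0.966), *Guk1* (0.964) and *Prpf40b* (0.959). *Msln* was most like *Pabpn1* (r = 0.938), *Dcn* (0.924) and *Snx8* (0.922). With 9 libraries and so many candidates such values are found by search, and the libraries share their depth and scaling.

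Beyond the 8 genes, 34 other genes of fetal-like and wound repair epithelium were examined, of which 31 could be tested, 4 rose and 5 fell, where 6.76% of all genes rose and 6.54% fell. *Spp1*, which encodes the secreted matrix protein osteopontin, was at 0.576, 4.92, 10.1 and 18.5 CPM in Smad4-knockout 1 to 4 and at 0.128 to 1.02 CPM in double-knockout libraries (log2 fold change -3.88, standard error 0.80, adjusted p = 0.0114 by edgeR). Smad4-knockout 1, which was also the lowest Smad4-knockout library for *Clu*, lay within the range of the double-knockout libraries. The call of *Spp1* was lost with limma-voom (adjusted p = 0.164), without double-knockout 2 and 4 (0.0596), in the fit with a Y-linked term (0.0894) and among the 6 libraries with few such counts (0.0621).

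The calcium-binding proteins *S100a6* and *S100a14* fell as well. *S100a6* went from 960 ± 92.7 to 678 ± 52.9 CPM (log2 fold change -0.50, standard error 0.10, adjusted p = 0.00787) and *S100a14* from 194 ± 15.9 to 114 ± 34.1 CPM (log2 fold change -0.77, adjusted p = 0.0251). *Il1rn*, given above, fell too. The growth factor genes *Ereg* and *Areg*, whose products bind the EGF receptor, rose, *Ereg* from 5.51 ± 2.002 to 19.1 ± 7.08 CPM (log2 fold change 1.79, standard error 0.34, adjusted p = 0.00768) and *Areg* from 32.1 ± 4.90 to 50.5 ± 11.7 CPM (log2 fold change 0.66, adjusted p = 0.0317). So did *Itga2*, a collagen receptor subunit, from 76.4 ± 7.61 to 132 ± 28.3 CPM (log2 fold change 0.79, adjusted p = 0.00725). Leaving out single libraries ended the calls of *S100a14* (4 libraries) and *Areg* (7), and of none of *S100a6*, *Ereg* or *Itga2*. Without double-knockout 2 and 4 together *S100a6* (adjusted p = 0.0596), *S100a14* (0.0707) and *Areg* (0.0860) did not pass. *Areg* did not pass without double-knockout 1 and 2 either (adjusted p = 0.0719). The term for Y-linked counts ended the calls of *S100a14* (adjusted p = 0.140) and *Areg* (0.107). The median log2 fold change of the 31 genes was -0.08, and 22 of them did not pass the test, among them *Anxa3*, *Anxa5*, *Gja1*, *Cldn4*, *Cd44* and *Emp1*.

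**Figure D4:**
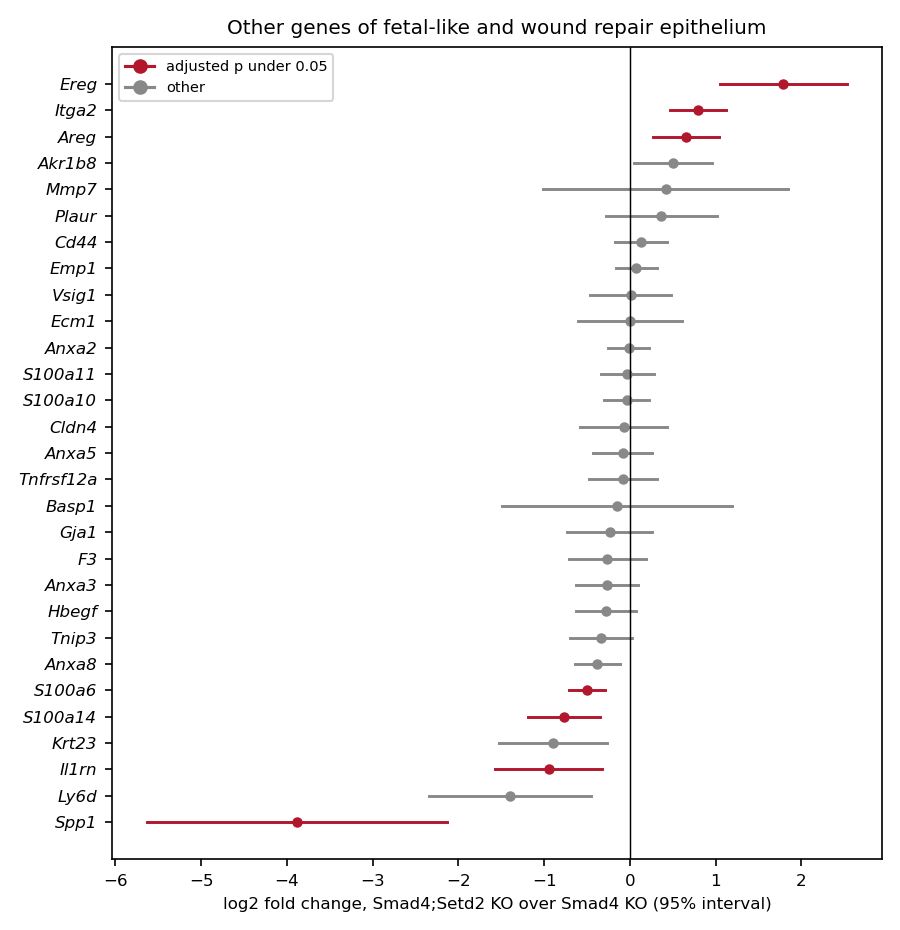
Log2 fold change (x axis, double-knockout over Smad4-knockout) with its 95% interval for 29 of the 31 tested other genes of fetal-like and wound repair epithelium, in red where the adjusted p was under 0.05. The 4 red genes left of 0 are *Spp1*, *Il1rn*, *S100a14* and *S100a6*, and the 3 on the right are *Ereg*, *Itga2* and *Areg*.

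Of 21 tested components of the YAP pathway 1 rose and 0 fell, namely *Amotl1*, a scaffold that retains YAP in the cytoplasm, from 12.6 ± 2.64 to 19.7 ± 3.17 CPM (log2 fold change 0.65, adjusted p = 0.0270). Limma-voom called 2 higher and 1 lower. Of all genes 6.76% rose and 6.54% fell, a background from which counts this small cannot be set apart. *Yap1* itself was at 95.1 and 102 CPM (change of 0.09 on the log2 scale, adjusted p = 0.494) and *Tead1* at 58.7 and 55.8 CPM (change of -0.07 on the log2 scale, adjusted p = 0.683). Of 17 tested YAP target genes 1 rose and 1 fell, and their median log2 fold change was -0.10. *Myof*, which encodes a membrane repair protein, fell from 114 ± 1.52 to 66.2 ± 9.36 CPM (log2 fold change -0.78, standard error 0.10, adjusted p = 0.00141), and *Dock5* rose slightly from 138 ± 12.3 to 164 ± 6.02 CPM (log2 fold change 0.25, adjusted p = 0.0494). Leaving out single libraries ended the call of *Dock5* for 7 of 9 libraries and that of *Amotl1* for 3 of 9, and of *Myof* for 0 of 9. With the term for Y-linked counts *Amotl1* (adjusted p = 0.116) and *Dock5* (0.136) did not pass. The classic target *Ctgf* had at most 9 counts and was not tested.

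**Figure D5:**
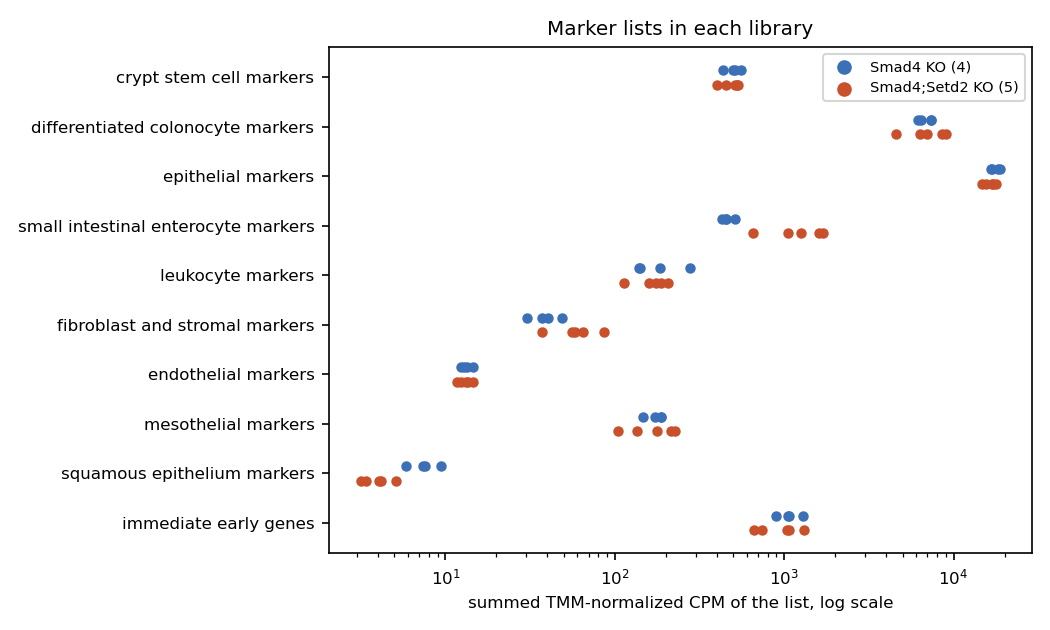
Summed CPM of each marker list (rows) in each library on a log scale (x axis), with Smad4-knockout libraries in blue and double-knockout libraries in orange. The groups are apart for small intestinal enterocyte markers (430.1 to 509 against 656 to 1688 CPM) and for squamous markers (5.87 to 9.44 against 3.17 to 5.10 CPM) and overlap for the others.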

How the data were processed

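RNA-seq libraries of colon IECs from 4 Smad4-knockout and 5 Smad4-knockout;Setd2-knockout mice were grouped by the genotype in the sample labels. The authors deposited whole-number counts per gene symbol, without normalization or pooling. The submitters' processing notes name HISAT2 2.0 and mm10, while the counting program, annotation and strand setting are not given in the sources used here. Reads of a gene and an overlapping gene on the other strand (*1500015L24Rik* for *Anxa1*, *Gm671* for *Krt7*) therefore cannot be told apart, and counting could split reads of near-identical genes. Symbols turned into dates (27) stayed in the totals.

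Low-count genes were removed by edgeR 4.0.16 (filterByExpr, in R 4.3.3), and the rest were TMM-normalized and tested over all 9 libraries without covariates with edgeR's quasi-likelihood test and Benjamini-Hochberg adjustment. Each standard error was obtained by dividing the size of the log2 fold change by the square root of its F statistic. Correlations used log2 of CPM plus 0.5. Alternatives included DESeq2 1.42.0 and limma 3.58.1 (voom with a quality weight for each library, called limma-voom here). Fits without double-knockout replicates 1 and 2 (lowest *Clu*, highest *Ptgs2*) and without 2 and 4 (highest small intestinal markers) were chosen after seeing the data. The method was also run on simulated negative binomial counts with the dispersions of these data. Such counts hold no differences in cell types or sex between mice, so that the run cannot vouch for the comparison of the genotypes. The study's text names no differential expression test, and no column of fold changes was used.

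Members, gene lists and tests were chosen with earlier results of these data known. Named genes were the 8 members, *Setd2*, *Smad4*, direct partners of members, at most 4 called genes of each pathway or family list with the largest changes, the genes most alike in pattern, and markers that touch a member. The uncalled genes of the lists that are given as examples, and the called genes of the repair list beyond the first 4, were chosen after their values were seen. Results of some genes of that list are not reported here. Depth was 12487129 to 17120202 counts, libraries of 1 genotype differed far beyond counting noise (chi-square of at least 9.22 per gene), and p-values measure the spread between these mice, whose controls were littermates per the study's methods, with no litter given for each mouse. Locations and exon lengths are from GENCODE M21 and promoters from RefSeq, both on GRCm38, of which mm10 is another name.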

Additional observations from a re-analysis of the deposited data

Results flagged for a closer look

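In 84 groups of 4 or 5 libraries (30 named genes and 12 list sums in each genotype), 3 single libraries lay far from the rest by Dixon's ratio, where chance flags about 1 in 20 groups. *Anxa1* was at 246 CPM in double-knockout 1, with the next library at 199 CPM and the lowest at 182 CPM. *Smad4* was at 92.6 CPM in Smad4-knockout 1, where the other 3 libraries lay between 54.2 and 55.3 CPM. *Slco2a1* was at 127 CPM in double-knockout 2, with the next library at 81.6 CPM and the lowest at 64.0 CPM.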

How the results depend on the processing

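The fall of *Clu* and of *Sprr1a* kept its direction and its side of the threshold under all 21 alternatives, with log2 fold changes from -3.82 to -3.07 and from -1.38 to -1.01. The number of repair genes that rose was 0, and 1 among the libraries with few Y-linked counts and without double-knockout replicates 1 and 2. Leaving out single libraries gave *Ly6a* from -0.23 to 0.037 (0.030 without Smad4-knockout 2, 0.0029 without double-knockout 4), *Msln* from -0.23 to 0.47 (-0.095 without Smad4-knockout 1) and *Smad4* from -0.11 to 0.37 (-0.011 without double-knockout 5). *Ptgs2* turned without double-knockout 1 and 2 (-0.013), and *Smad4* with limma-voom (-0.18), the replicate block (-0.14), the Y-linked term (-0.71), libraries with few Y-linked counts (-0.70) and without double-knockout 1 and 2 (-0.12). The cause was not tested.

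Over all genes 986 were higher and 955 lower. Leaving out 1 library gave 455 to 1380 higher and 392 to 1316 lower, and leaving out double-knockout 2 and 4 gave 377 and 359, with fewer samples. The Y-linked term gave 653 and 632, limma-voom 1523 lower, and libraries with few Y-linked counts 1524 lower. Libraries of the same replicate number did not deviate together (r from -0.12 to 0.084), and the replicate block left 0 repair genes higher and 2 lower, with 787 and 831 of all genes. *Il33*, *Msln* and *Ptgs2* had fewer than 100 counts in every library, which limits their precision.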
